A study of Mus musculus with 35 samples.

Results

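The set described here is the degradative machinery of the lysosome in sorted spinal cord microglia: 24 genes for hydrolases, their soluble partners and lysosomal membrane proteins, and 12 genes for subunits of the vacuolar proton pump, the V-ATPase. The genes were chosen by symbol, with earlier results of these data known, so counts of called genes describe this list and do not test it. All 36 symbols matched a row among the 45706 genes of the deposited tables. Lysosomes are acidic compartments in which soluble hydrolases cut glycans, lipids and proteins that reach them by engulfment or by autophagy. The V-ATPase, built from a membrane-embedded V0 sector and a cytosolic V1 sector, pumps the protons that keep them acidic, and glycoproteins such as Lamp1 and Lamp2 line their membrane. In microglia, the resident macrophages of the central nervous system, this compartment takes up engulfed debris, synaptic material and myelin. Many lysosomal genes carry in their promoters an E-box-like element, called CLEAR, to which transcription factors of the TFEB family bind.

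RNA was profiled from spinal cord microglia of rNLS8 mice, in which a neurofilament heavy chain promoter (NEFH-tTA) drives the tet-off transactivator in neurons and a tetO-hTDP43 transgene is switched on when doxycycline is withdrawn from the diet. All mice, on a mixed C57BL/6J X C3HeJ F1 background, were kept on doxycycline until 8 to 12 weeks of age, and live cells positive for CD11b and CD45 were sorted after a Percoll gradient. The early disease group held 7 rNLS8 (+/+) libraries taken 2 weeks after withdrawal, and the late disease group held 7 rNLS8 (+/+) libraries taken 6 weeks after withdrawal. The recovery group held 7 rNLS8 (+/+) libraries from mice with 6 weeks without doxycycline and then 1 week back on it. The 14 controls combined 6 rNLS8 (+/+) libraries from mice continuously on doxycycline with 8 libraries of WT (-/-) mice, 4 of which were 2 weeks off doxycycline, 1 of which was 6 weeks off, and 3 of which were 6 weeks off and 1 week back on. The transgene is driven in neurons, and its own level was not analysed here.

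Gene counts summed to between 13.9 M and 20.4 M per library. A date code in the library titles (the labels do not say what it marks) was 0803 for every recovery library and 0810 for 9 of the 14 controls, whereas the disease libraries carried 1019, 1102 and 1130, so for recovery the code and the group cannot be told apart. Summed CPM (counts scaled to library size) of 10 microglial markers were 60014 to 70349.6 in early disease, 45035 to 69105 in late disease, 60764 to 71144 in recovery and 62987 to 81542 in controls. Late disease replicate 6 was the lowest of these and had 1709 CPM of P2ry12, against at least 6188 CPM in every control. A list of 13 neutrophil markers summed to 547 to 792 CPM in early disease, 684 to 1072 CPM in late disease, 799 to 7896 CPM in recovery and 455 to 854 CPM in controls. Outside recovery this sum came mostly from Csf3r, with medians of 578 CPM in early disease, 722 CPM in late disease and 546 CPM in controls. The median of S100a8 was 0.05, 0.89 and 0.24 CPM in those groups. In recovery Csf3r had a median of 634 CPM and S100a8 one of 419 CPM. In the deposited TPM table (transcript abundance scaled by length and library), the share of TPM that fell outside the listed genes was 2.32% to 8.86% in the 21 disease and recovery libraries and 3.76% to 30.8% in controls, where the 9 of code 0810 had at least 13.9% and the other 5 at most 11.4%.

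Promoter sequences, from 250 bases before to 50 bases after the RefSeq start site of each gene, were taken from RefSeq on GRCm38.p6 and matched 30 of the 36 genes. The E-box core CACGTG, which reads the same on both strands, was found in 10 of these 30 promoters (33.3%), against 1957 of 27025 promoters of the same length (7.24%). That larger set took the first listed promoter of every gene, whatever its type and whether or not it is expressed in these cells. The member promoters that held the core belonged to 7 of 22 hydrolase and membrane genes and 3 of 8 V-ATPase genes. The longer form TCACGTGA, which contains the core, was found in 4 of 30 promoters (13.3%) against 1.01% of all promoters. That form extended by G before it and C after it was found in 0 of 30 promoters, against 0.359% of all. Lamp1 held 4 cores, Gla, Mcoln1 and Atp6v0b held 2 each, and the other 6 genes held 1 each. A match describes the letters of the window and does not show that a factor binds there.
The 250 bases before the start site are given, 5′ to 3′ on the strand of the gene, for the most strongly raised hydrolase gene of late disease (Gla), the calcium channel gene Mcoln1, Lamp1 with its 4 cores and, as a contrast, Gusb, which rose in late disease and in recovery and has no core. Capitals mark CACGTG.
Gla (chrX:134601006-134601255, minus strand): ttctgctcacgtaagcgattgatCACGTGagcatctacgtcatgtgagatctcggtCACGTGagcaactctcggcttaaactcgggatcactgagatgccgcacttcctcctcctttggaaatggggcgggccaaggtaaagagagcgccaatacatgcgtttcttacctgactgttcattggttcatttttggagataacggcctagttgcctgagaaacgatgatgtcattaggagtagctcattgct
Mcoln1 (chr8:3500269-3500518, plus strand): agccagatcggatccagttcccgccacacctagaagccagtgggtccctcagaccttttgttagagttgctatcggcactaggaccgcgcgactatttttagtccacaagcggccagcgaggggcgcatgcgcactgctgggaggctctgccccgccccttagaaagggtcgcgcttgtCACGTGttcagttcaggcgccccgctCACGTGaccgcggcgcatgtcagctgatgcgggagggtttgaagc
Lamp1 (chr8:13158911-13159160, plus strand): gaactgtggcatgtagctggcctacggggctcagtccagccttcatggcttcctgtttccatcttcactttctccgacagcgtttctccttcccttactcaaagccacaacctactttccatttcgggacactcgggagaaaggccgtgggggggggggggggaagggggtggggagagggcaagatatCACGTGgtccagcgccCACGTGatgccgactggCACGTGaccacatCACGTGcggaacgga
Gusb (chr5:130003050-130003299, minus strand): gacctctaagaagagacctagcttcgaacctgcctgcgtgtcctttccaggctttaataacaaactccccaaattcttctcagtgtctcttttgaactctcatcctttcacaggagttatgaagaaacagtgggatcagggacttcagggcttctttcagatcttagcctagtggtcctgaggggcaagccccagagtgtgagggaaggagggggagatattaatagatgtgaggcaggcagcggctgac
For the other 7 promoters with a core, 30 bases around the first core are shown so that its flanks can be compared between hydrolase and pump genes.
Naglu (chr11:101070009-101070038, plus strand): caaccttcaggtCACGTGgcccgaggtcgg
Glb1 (chr9:114401018-114401047, plus strand): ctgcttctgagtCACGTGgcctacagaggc
Gaa (chr11:119267811-119267840, plus strand): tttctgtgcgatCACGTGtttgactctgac
Sgsh (chr11:119355522-119355551, minus strand): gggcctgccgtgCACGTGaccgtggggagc
Atp6v0b (chr4:117887348-117887377, minus strand): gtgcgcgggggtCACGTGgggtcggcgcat
Atp6v0d1 (chr8:105566050-105566079, minus strand): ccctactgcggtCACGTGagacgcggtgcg
Atp6v1a (chr16:44139373-44139402, minus strand): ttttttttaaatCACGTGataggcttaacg

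The cores lay 3 to 227 bases before the RefSeq start site, and 4 of the 16 were more than 100 bases away, 2 in Gla and 1 each in Gaa and Atp6v1a. The GENCODE gene bounds given below start elsewhere for some genes. The Naglu core, for 1, lies inside its GENCODE bounds. Of the 10 genes with a core, 6 rose in late disease by the test described below (Gla, Mcoln1, Glb1, Gaa, Naglu and Lamp1) and 0 fell, with a median log2 fold change of 0.24. Of the 20 genes whose promoter had no core, 5 rose (Man2b1, Psap, Neu1, Gusb and Atp6v0a1) and 2 fell (Smpd1 and Laptm5), with a median of 0.09. In recovery, 2 of the 10 genes with a core rose and 4 of the 20 without one did. Over all genes tested 9.01% rose and 6.39% fell in late disease, and 2.87% rose and 1.1% fell in recovery. The late disease calls of Lamp1, Gaa and Naglu (core) and of Neu1, Atp6v0a1 and Laptm5 (no core) were lost in some fits without 1 library. These counts are a description of 30 promoters and were not tested.

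**Figure D1:**
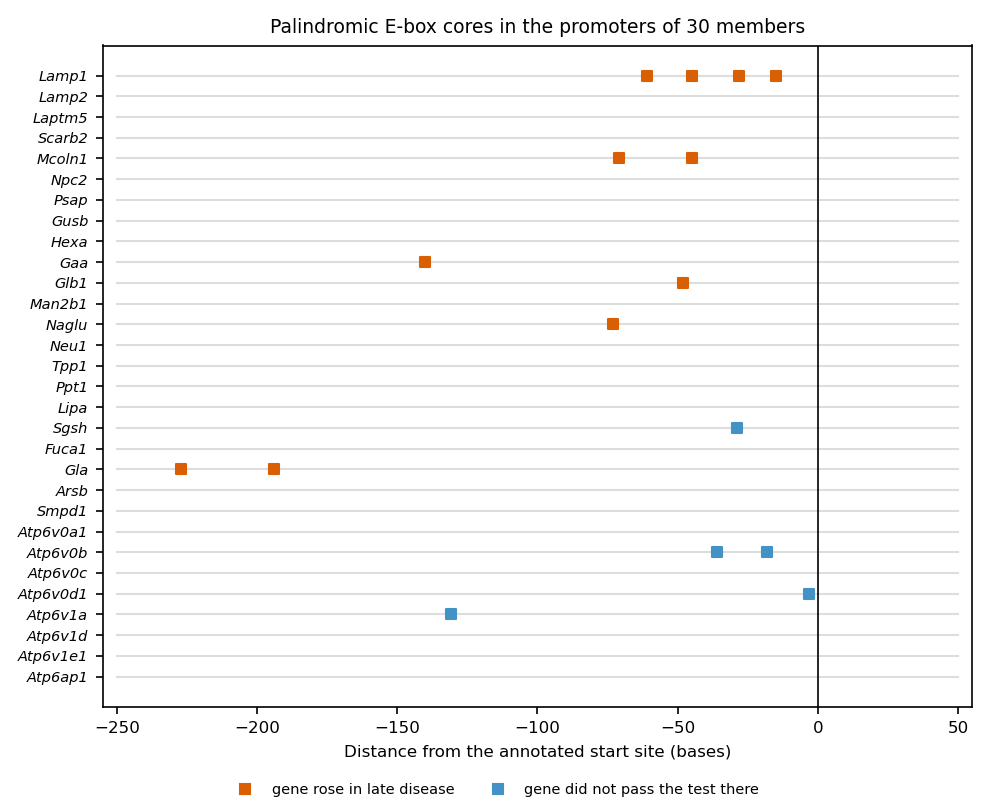
Position of each CACGTG core in the promoter of 30 lysosomal genes, as bases from the RefSeq start site on the horizontal axis, with 1 row per gene. Orange squares are cores of genes that rose in late disease and blue squares are those of genes that did not pass the test. The cores lie 3 to 227 bases before the RefSeq start site, and Lamp1 holds 4 of them.

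Levels between genes were compared per transcript length, in TPM over the 14 controls. Laptm5, a membrane protein of the lysosomes of blood-lineage cells, was the most abundant with 6542 ± 685 TPM (SD, n = 14), followed by Psap, the precursor of the saposin activators, with 3019 ± 574 TPM. Lamp1 (1588 ± 214 TPM) and Hexa, a glycosidase gene (1371 ± 171 TPM), came next, and the intervals of 1 SD around their means overlapped. Atp6v0c, which forms the proton-carrying ring of the V0 sector, was the most abundant pump gene with 789.6 ± 84.9 TPM and did not differ from Asah1, acid ceramidase, with 787 ± 69.6 TPM, beyond their spread. The lower end held Mcoln1 (52.0 ± 13.2 TPM), Atp6v1a, a catalytic subunit of the V1 sector (36.7 ± 5.58 TPM), Sgsh, a sulfatase for heparan sulfate (28.9 ± 9.54 TPM), and Gla, alpha-galactosidase A (5.76 ± 1.92 TPM). Atp6v0d2, an isoform of the V0 d subunit, was at or near 0.

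Module means, the mean over genes of log2 CPM in each library, gave a first view of the groups. For the 24 hydrolase and membrane genes the mean was 8.63 ± 0.08 in early disease, 8.83 ± 0.20 in late disease, 8.89 ± 0.09 in recovery (SD, n = 7 each) and 8.69 ± 0.09 in controls (n = 14). For the 12 V-ATPase genes it was 6.54 ± 0.10, 6.67 ± 0.15 and 6.81 ± 0.12 in early disease, late disease and recovery, and 6.58 ± 0.12 in controls. The hydrolase and membrane mean of late disease exceeded that of controls by 0.14, and 5 of 7 late disease libraries lay above all 14 controls. Late disease replicate 1 lay apart, with a hydrolase and membrane mean of 8.42, and without it the difference was 0.21. It was the lowest of the late disease libraries for 25 of 35 genes, while replicate 6 was the highest for 20.

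The recovery libraries showed the highest hydrolase and membrane mean, 0.19 above controls, with 6 of 7 libraries above all controls. Their V-ATPase mean was 0.23 above controls over the 12 genes, but 0.09 without Atp6v0d2, a gene with few counts that was left out of this second value after its counts were seen. Without Atp6v0d2 the V-ATPase mean was 7.39 ± 0.08 in early disease, 7.52 ± 0.15 in late disease, 7.55 ± 0.06 in recovery and 7.46 ± 0.13 in controls, and the groups overlapped. In early disease the hydrolase and membrane mean was 0.06 below controls. The V-ATPase mean was 0.04 below over the 12 genes and differed by -0.07 without Atp6v0d2. On the log2(TPM + 1) scale the early disease differences had the other sign, 0.18 for hydrolase and membrane genes and 0.17 for the V-ATPase, and those of late disease were larger, 0.33 and 0.25. On that scale the median of all genes was itself shifted by 0.22 in early disease and 0.18 in late disease, and by 0.07 in recovery.

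**Figure D2:**
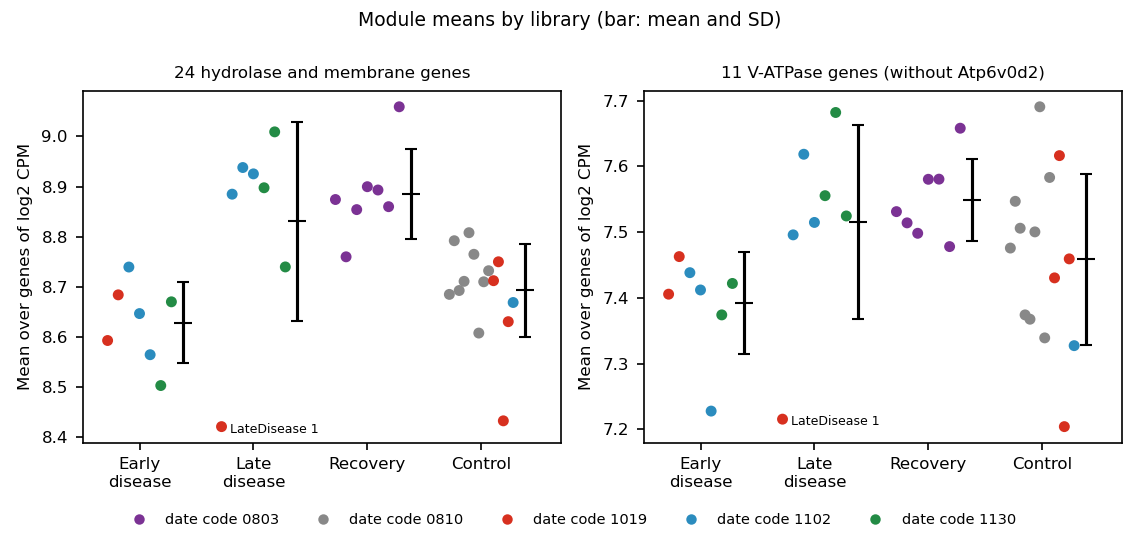
Mean log2 CPM over the 24 hydrolase and membrane genes and over the V-ATPase genes without Atp6v0d2 in each library, by group. Points are libraries coloured by date code, and bars are the mean and SD over libraries. Late disease replicate 1 lies below the other 6 late disease libraries, and 6 of 7 recovery libraries lie above all controls in the hydrolase and membrane mean.

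Late disease compared with controls asks how these genes stand when the mice are 6 weeks into TDP-43 expression. Of the 35 genes that passed the filter on low counts, 11 rose and 2 fell in late disease (edgeR quasi-likelihood test, Benjamini-Hochberg adjusted p under 0.05 over 13501 genes). Over all genes tested 15.4% were called, 9.01% higher and 6.39% lower. By role, 10 of 24 hydrolase and membrane genes rose and 2 fell, while 1 of 11 V-ATPase genes rose and 0 fell. The median log2 fold change was 0.15 for hydrolase and membrane genes and 0.05 for V-ATPase genes, against 0.02 for all genes. At an unadjusted p under 0.05, 12 genes were higher and 2 lower, where 29.4% of all genes passed that level. In these bulk libraries fewer cells of a type and less RNA per cell cannot be told apart. The late disease and control ranges of CPM overlapped for every one of the 36 genes, and over all genes tested 0.281% lay wholly higher and 0.193% wholly lower.

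Among the 6 membrane proteins, 2 rose, 1 fell and 3 did not pass. Mcoln1 (ENSMUSG00000004567.13, chr8:3500457-3515232, plus strand), the cation channel through which lysosomes release calcium, had lowest, median and highest values of 59.8, 73.4 and 121 CPM in late disease, against 44.8, 57.0 and 74.2 CPM in controls. All 7 late disease libraries lay above the control median and 3 above every control, with replicate 1 the highest. This gave a log2 fold change of 0.48 ± 0.10 (SE), a 1.4-fold rise, with an edgeR adjusted p of 0.0021. Lamp1 (ENSMUSG00000031447.6, chr8:13159161-13175338, plus strand) had 1837, 2699 and 2761 CPM in late disease and 1572, 2091 and 2936 CPM in controls, with 6 of 7 late disease libraries above the control median and 0 above the highest control. Its log2 fold change of 0.23 ± 0.08 passed narrowly (edgeR adjusted p = 0.0485) and no longer passed in 32 of 35 fits that left out 1 library. Laptm5 (ENSMUSG00000028581.15, chr4:130913125-130936141, plus strand) fell: its values were 5127, 7164 and 8518 CPM in late disease and 6454, 8596 and 9701 CPM in controls, and all 7 late disease libraries lay below the control median. edgeR estimated a log2 fold change of -0.27 ± 0.08 (edgeR adjusted p = 0.0264), and the call ended without late disease replicate 1, 3 or 6. Lamp2, Scarb2 (a membrane protein that also serves as a transport receptor) and Npc1 (the cholesterol exporter) had log2 fold changes of -0.14, 0.05 and 0.03 and did not pass.

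Psap (ENSMUSG00000004207.12, chr10:60277627-60302597, plus strand) was the activator gene that rose. Its lowest, median and highest values were 3314, 6612 and 9272 CPM in late disease and 3361, 4793 and 6074 CPM in controls. Of the 7 late disease libraries, 5 lay above every control, and replicate 1 lay below all of them. On the log2 scale the difference was 0.55 ± 0.13, or 1.46-fold, with an edgeR adjusted p of 0.00382. Npc2, which hands cholesterol to Npc1, had a log2 fold change of 0.18 ± 0.09 and did not pass (edgeR adjusted p = 0.201).

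Among the 16 hydrolases, 7 rose and 1 fell. Gla (ENSMUSG00000031266.6, chrX:134588149-134601125, minus strand), which removes terminal galactose from glycolipids, had the largest fold change of the set. Its values were 8.93, 22.8 and 29.2 CPM in late disease and 4.99, 10.4 and 18.3 CPM in controls, and 6 of 7 late disease libraries lay above every control while replicate 1 lay among them. The estimated log2 difference was 1.01 ± 0.19, 2.01-fold (edgeR adjusted p = 0.000752). Man2b1 (ENSMUSG00000005142.9, chr8:85083270-85098282, plus strand), the lysosomal alpha-mannosidase, had 1962, 2411 and 4294 CPM in late disease and 1259.9, 1690.0 and 2418 CPM in controls. Every late disease library lay above the control median, 3 of them above every control, and replicate 6 was far higher than the rest. Its log2 fold change was 0.67 ± 0.13, 1.6-fold (edgeR adjusted p = 0.000592).

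Gusb (ENSMUSG00000025534.15, chr5:129989011-130003049, minus strand), beta-glucuronidase, moved less but with the smallest adjusted p of the set. It had 480.0, 620.1 and 681 CPM in late disease and 376, 458 and 553 CPM in controls, and 6 of 7 late disease libraries lay above every control. This gave a log2 fold change of 0.41 ± 0.07, 1.33-fold, with an edgeR adjusted p of 8.47e-05. Glb1 (ENSMUSG00000045594.9, chr9:114401076-114474898, plus strand), beta-galactosidase, had 110.4, 184 and 278 CPM in late disease and 110.5, 136 and 158 CPM in controls, with 6 of 7 late disease libraries above every control. edgeR estimated a log2 fold change of 0.44 ± 0.10 (edgeR adjusted p = 0.00354).

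The other 3 hydrolases that rose did so with smaller or less even differences. Gaa (ENSMUSG00000025579.12, chr11:119267887-119285454, plus strand), which degrades glycogen, averaged 343 ± 48.2 CPM in late disease and 279.6 ± 39.1 CPM in controls (SD, n = 7 and 14), a log2 fold change of 0.31 ± 0.09 (edgeR adjusted p = 0.0177). Naglu (ENSMUSG00000001751.9, chr11:101070012-101077672, plus strand), an enzyme of heparan sulfate breakdown, averaged 326 ± 46.7 CPM in late disease and 276 ± 34.7 CPM in controls, a log2 fold change of 0.25 ± 0.08 (edgeR adjusted p = 0.0269). Neu1 (ENSMUSG00000007038.5, chr17:34931253-34935953, plus strand), the lysosomal sialidase, had 82.2, 96.6 and 248 CPM in late disease and 65.5, 83.5 and 103 CPM in controls, so that 1 library, replicate 6, stood far above the rest. Its log2 fold change of 0.49 ± 0.15 (edgeR adjusted p = 0.0204) became 0.21 without that library (adjusted p = 0.186). The Gaa call also ended without replicate 6 (adjusted p = 0.0576), and the Naglu call without replicate 3, 4 or 5.

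Smpd1 (ENSMUSG00000037049.8, chr7:105554360-105558389, plus strand), acid sphingomyelinase, was the hydrolase that fell. It had 80.1, 109 and 123 CPM in late disease and 104, 133 and 166 CPM in controls, and all 7 late disease libraries lay below the control median. On the log2 scale the difference was -0.38 ± 0.08, 0.768-fold (edgeR adjusted p = 0.00193). On the log2(TPM + 1) scale, 21 genes rose and 0 fell, so both Smpd1 and Laptm5 were no longer called there, and over all 13188 genes 2627 were called higher and 197 lower. The largest negative estimate belonged to Arsb, arylsulfatase B, with a log2 fold change of -0.48 ± 0.26 that did not pass (edgeR adjusted p = 0.219), at 618, 1387 and 1855 CPM in late disease and 771, 1815 and 2834 CPM in controls. Hexa (-0.27 ± 0.14, edgeR adjusted p = 0.201) did not pass either. Arsb shares 39.9% of its exon bases with genes on the opposite strand, Sgsh 21.6%, Hexa 12.8% and Atp6v0b 11.8%, and with a library kit that does not mark strand their reads cannot be told from those of the partners. The remaining hydrolases (Tpp1, Ppt1, Lipa, Asah1, Sgsh and Fuca1) had log2 fold changes from -0.15 to 0.25, with alpha-fucosidase Fuca1 the closest to a call (edgeR adjusted p = 0.0606).

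Of the proton pump genes, only Atp6v0a1 passed among the 11 tested. Atp6v0a1 (ENSMUSG00000019302.14, chr11:101009452-101063719, plus strand), an isoform of the V0 subunit through which protons pass, had 171, 204 and 234 CPM in late disease and 104, 179 and 203 CPM in controls. Of the late disease libraries, 4 lay above every control and 6 above the control median. The estimated log2 difference was 0.25 ± 0.09 with an edgeR adjusted p of 0.0499, and 26 of 35 fits without 1 library lost the call. The other V0 genes tested were Atp6v0c (0.17 ± 0.09, edgeR adjusted p = 0.23), Atp6v0b (0.00 ± 0.11, 0.995) and Atp6v0d1 (0.05 ± 0.10, 0.813), and the 6 V1 genes (Atp6v1a, Atp6v1b2, Atp6v1c1, Atp6v1d, Atp6v1e1 and Atp6v1h) had a median of 0.06, with 3 estimates above 0 and 3 below. Atp6ap1, the accessory subunit, was at 0.02 ± 0.09.

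**Figure D3:**
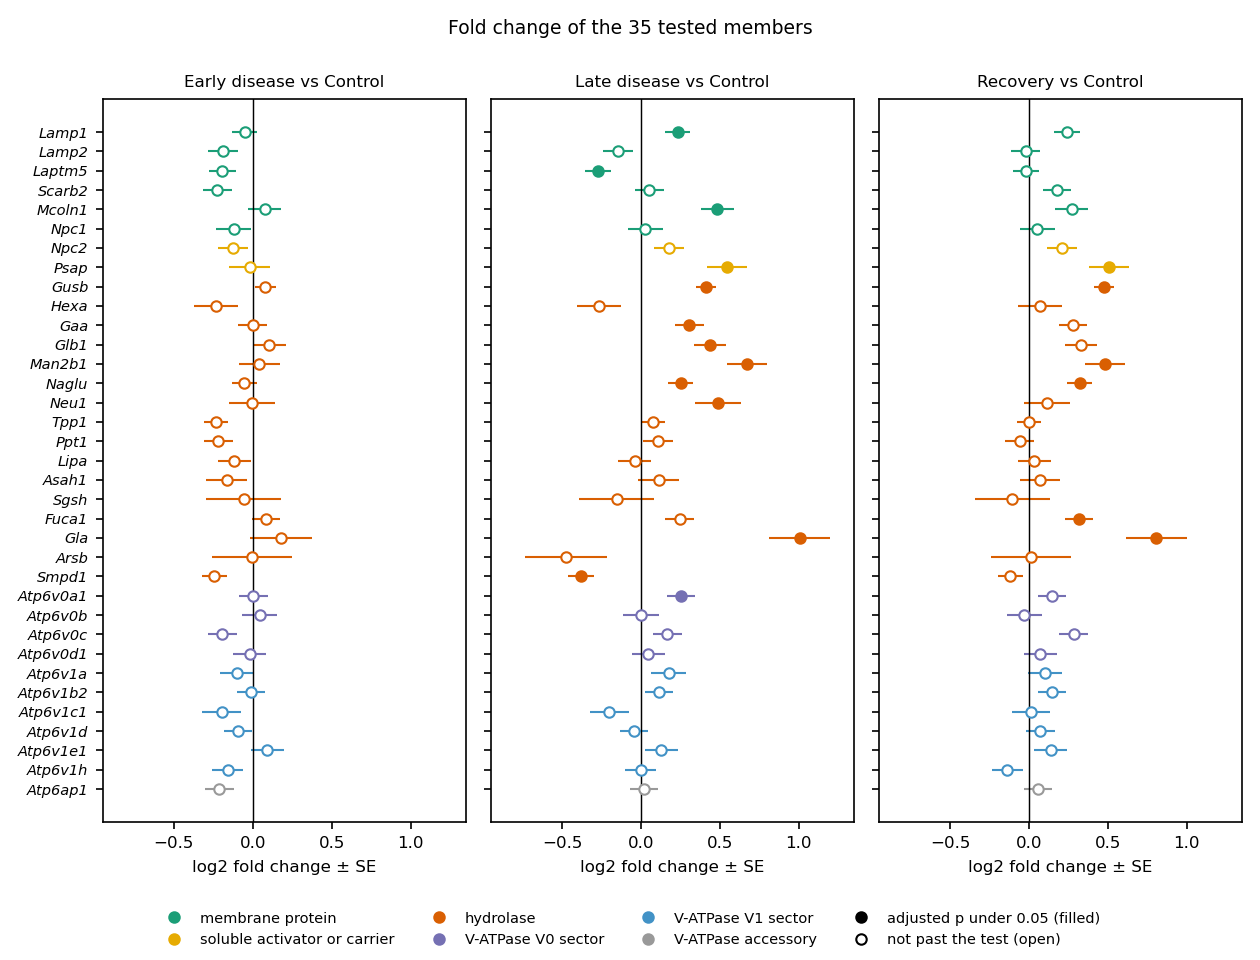
Log2 fold changes with standard errors for 35 lysosomal genes against controls, in early disease, late disease and recovery (1 panel each). Filled points have an edgeR adjusted p under 0.05. Late disease has 13 filled points, 2 of them below 0, recovery has 6 above 0 and early disease has 0.

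The late disease calls rest on controls that mostly carry another date code. With the date code as a term in the fit (28 libraries, recovery left out), 0 of the 13 calls remained, with Gusb at 0.29 (adjusted p = 0.409), Gla at 0.89 (adjusted p = 0.431), Man2b1 at 0.37 (adjusted p = 0.575) and Smpd1 at -0.38 (adjusted p = 0.274). Over all genes that fit called 4 of 13211, against 2080 of 13501 without the term. Against the 5 controls of the shared codes, Gusb (0.36, adjusted p = 0.0363) and Gla (0.99, adjusted p = 0.0303) remained, where 191 of 13544 genes were called in all. Within code 1102 (3 late disease libraries against 1 control) the log2 differences were 0.48 for Gusb, 0.85 for Gla, 0.59 for Man2b1, 0.62 for Psap and -0.30 for Smpd1. Within code 1019 the late disease library was replicate 1, and against 4 controls it gave 0.01 for Gusb, -0.19 for Gla, 0.16 for Man2b1, -0.45 for Psap, 0.89 for Mcoln1 and -0.62 for Smpd1. The hydrolase and membrane mean differed by 0.25 within 1102 and by -0.21 within 1019. The V-ATPase mean, over the 12 genes, differed by 0.25 and -0.19. With the share of TPM outside the table as a covariate, Gusb alone remained (0.34, adjusted p = 0.0257), where 252 of 13501 genes were called in all. The estimates in that fit were 0.93 for Gla, 0.57 for Man2b1, 0.53 for Psap and 0.40 for Mcoln1. Over all 12 alternative settings Gla lay between 0.89 and 1.19, Mcoln1 between 0.39 and 0.85, and Psap between 0.19 and 0.70. Without late disease replicate 6, 8 calls remained in place of 13. Over all genes, late disease fits without 1 library called 1327 to 2265. In late disease 5 of 10 microglial markers fell, and 2 of 9 border macrophage, 2 of 8 monocyte and 1 of 12 neutrophil markers tested rose. Over all genes tested 9.01% rose and 6.39% fell. Of the 12 neutrophil estimates 5 were above 0 and 7 below, with a median of -0.24. Border macrophage markers summed to 156 to 740.2 CPM in late disease and 92.3 to 329 CPM in controls, mostly from Stab1, while Mrc1 reached at most 4.18 CPM in late disease. Their part in the results was not tested.

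**Figure D4:**
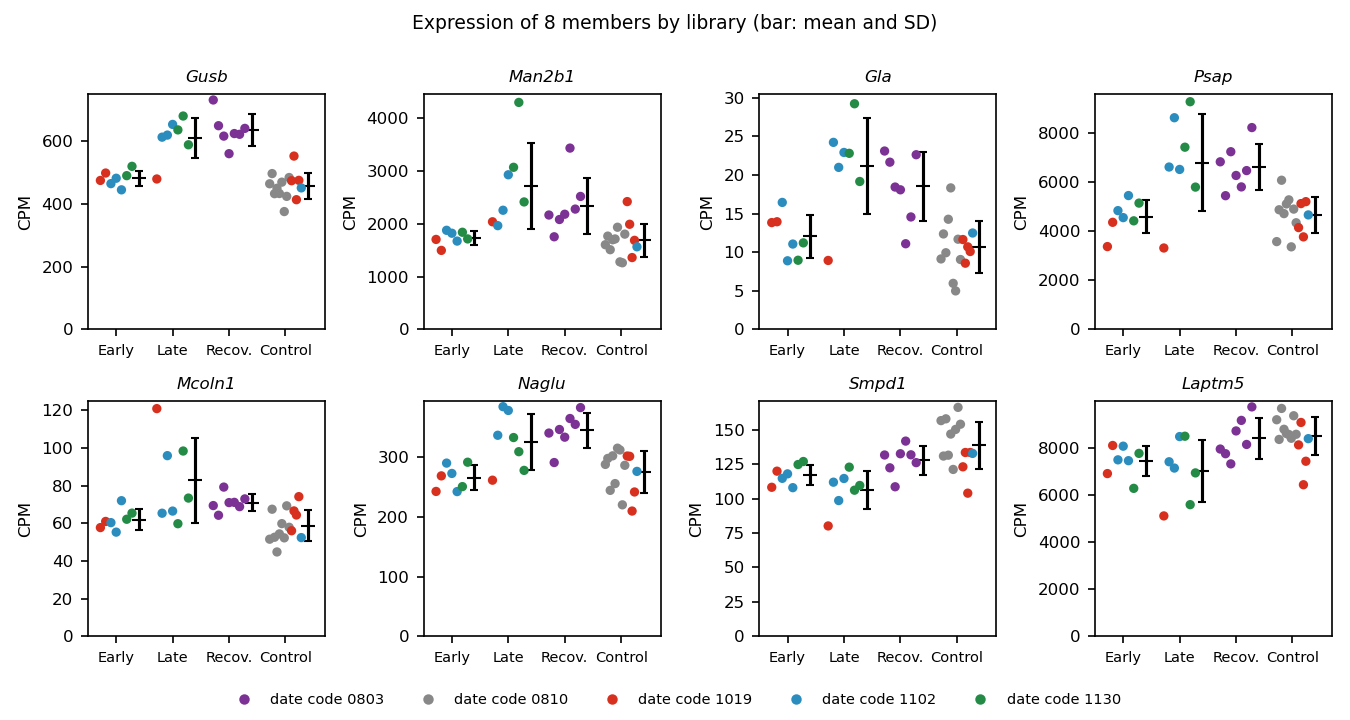
CPM of Gusb, Man2b1, Gla, Psap, Mcoln1, Naglu, Smpd1 and Laptm5 in each library, by group in the order early disease, late disease, recovery and control. Gusb in recovery (561 to 732 CPM) lies above every control (376 to 553 CPM), and Smpd1 and Laptm5 are lower in late disease than the control median in all 7 libraries.

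Early disease compared with controls asks whether these genes already differ 2 weeks after withdrawal. By edgeR, 0 of 35 genes were called (0.00741% of all genes tested were), and 0 were by DESeq2, which called 138 of 13474 genes in all. At an unadjusted p under 0.05 the edgeR test had 7 genes, all of them lower in early disease, where 12.6% of all genes passed that level. Smpd1 had 108, 118 and 127 CPM in early disease and 104, 133 and 166 CPM in controls, and all 7 early disease libraries lay below the control median. Its log2 fold change was -0.24 ± 0.08 (edgeR adjusted p = 0.203). Tpp1, a tripeptidyl peptidase, had 493, 562 and 655 CPM in early disease and 514, 685 and 779.5 CPM in controls, a log2 fold change of -0.24 ± 0.08 (edgeR adjusted p = 0.194). The other 5 were Scarb2 (-0.22), Ppt1, palmitoyl-protein thioesterase (-0.22), Atp6ap1 (-0.21), Laptm5 (-0.19) and Atp6v0c (-0.19), with edgeR adjusted p from 0.291 to 0.394. Over the 35 genes 26 estimates were below 0 and 9 above, with a median of -0.06 against -0.00 for all genes.

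The direction of the early disease estimates depended on the scale. On log2(TPM + 1), 6 genes were called higher and 0 lower, where 1343 of all 13188 genes were called higher and 47 lower. Against the 6 rNLS8 controls kept on doxycycline, 3 genes were called lower (Atp6ap1, Tpp1 and Smpd1), where 337 of 13416 genes were called lower and 398 higher. No early disease library shares the date code of these 6 controls, so that comparison cannot separate disease from date code. The share of TPM outside the listed genes also differed, at 14.4% to 30.8% in these controls and 3.01% to 5.52% in early disease. With the controls of the shared date codes 0 of 13544 genes were called in all, and with the WT controls 0 of 13314. Of the genes that rose in late disease, Gusb had an early disease log2 fold change of 0.08 ± 0.07, Gla 0.18 ± 0.20, Man2b1 0.04 ± 0.13, Psap -0.02 ± 0.13 and Mcoln1 0.08 ± 0.10. Their edgeR adjusted p ranged from 0.674 to 0.975.

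Late disease compared directly with early disease uses libraries of the same 3 date codes. Gusb and Man2b1 rose and 0 genes fell, so 2 of 35 were called, where 0.741% of all genes tested were (0.6% higher and 0.141% lower). Gusb had 480.0, 620.1 and 681 CPM in late disease and 445, 482 and 520.4 CPM in early disease, with 6 of 7 late disease libraries above every early disease library. This gave a log2 fold change of 0.34 ± 0.08 (edgeR adjusted p = 0.0306). Man2b1 had 1962, 2411 and 4294 CPM in late disease and 1494, 1711 and 1874 CPM in early disease. Every late disease library lay above every early disease library, which 0.37% of all genes showed in that direction. edgeR estimated a log2 fold change of 0.63 ± 0.15 (edgeR adjusted p = 0.0391). Psap (0.56 ± 0.15, edgeR adjusted p = 0.0582), Gla (0.83 ± 0.23, 0.0672) and Tpp1 (adjusted p = 0.0706) did not pass.

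At an unadjusted p under 0.05, 18 of 35 genes were higher in late than in early disease and 0 were lower, where 14.2% of all genes passed that level in either direction. The median log2 fold change was 0.30 for hydrolase and membrane genes and 0.13 for V-ATPase genes, against 0.03 for all genes. Within date codes 1019, 1102 and 1130 (1 against 2, 3 against 3 and 3 against 2 libraries), the late disease minus early disease difference was -0.02, 0.44 and 0.33 for Gusb, and 0.35, 0.39 and 0.84 for Man2b1. The hydrolase and membrane mean differed by -0.22, 0.27 and 0.30 within these codes. The V-ATPase mean, over the 12 genes, differed by -0.20, 0.17 and 0.21. Sex was not balanced within these codes: in 1130 the 3 late disease libraries were male and the 2 early disease libraries female, and in 1102 the 3 late disease libraries were female against 1 female and 2 male early disease libraries. These differences are not adjusted for it. The library behind the 1019 values was late disease replicate 1, and without it 10 genes rose. Over all genes, fits without 1 library called 16 to 235 in this comparison. The count of 2 became 0 without any of early disease replicates 1, 5, 6 and 7 or late disease replicates 3, 4 and 6, to 1 without early disease replicate 3, 4 or 8, and to 0 with the date code as a term, without the low-count filter and on the TPM scale. DESeq2 called 8 genes, all higher, and 356 of 11642 genes in all (268 higher and 88 lower).

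Recovery compared with controls asks where the genes stand after 1 week back on doxycycline. Of 35 genes, 6 rose and 0 fell, where 3.98% of all genes tested were called, 2.87% higher and 1.1% lower. All 6 were hydrolases or activators: 5 of 16 hydrolases, 1 of 2 soluble partners, 0 of 6 membrane proteins and 0 of 11 V-ATPase genes. The median was 0.10 over the 35 genes and -0.01 over all genes. Gusb had 561, 625 and 732 CPM in recovery and 376, 458 and 553 CPM in controls. Every recovery library lay above every control, which 0.43% of all genes showed in that direction and 0.0148% in the other. On the log2 scale the difference was 0.47 ± 0.07, 1.39-fold (edgeR adjusted p = 1.3e-05). The call held in all 35 fits without 1 library and in all 11 other settings, between 0.42 and 0.54. None of these settings could include the date code, since every recovery library carries 0803 and no control does.

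Gla had 11.1, 18.4 and 23.1 CPM in recovery and 4.99, 10.4 and 18.3 CPM in controls, with all 7 recovery libraries above the control median and 4 above every control. The estimated log2 difference was 0.81 ± 0.19 (edgeR adjusted p = 0.011). Psap had 5444, 6466 and 8218 CPM in recovery and 3361, 4793 and 6074 CPM in controls, with 5 recovery libraries above every control, and a log2 fold change of 0.51 ± 0.13 (edgeR adjusted p = 0.0159). Man2b1 had 1752, 2178 and 3429.9 CPM in recovery and 1259.9, 1690.0 and 2418 CPM in controls. Its log2 fold change was 0.48 ± 0.13 (edgeR adjusted p = 0.0217), and only 2 recovery libraries lay above every control. Naglu had 291, 347 and 383 CPM in recovery and 210.1, 288 and 315 CPM in controls, with 6 of 7 above every control. This gave a log2 fold change of 0.32 ± 0.08 (edgeR adjusted p = 0.0127). Fuca1 (ENSMUSG00000028673.8, chr4:135920735-135940311, plus strand) had 227, 246 and 298 CPM in recovery and 152, 195 and 312 CPM in controls, with all 7 above the control median and 0 above the highest control. edgeR estimated a log2 fold change of 0.32 ± 0.09 (edgeR adjusted p = 0.0374), and 13 of 35 fits without 1 library lost the call.

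Just outside the threshold in recovery were Glb1 (0.33 ± 0.10, edgeR adjusted p = 0.0583), Gaa (0.28 ± 0.09, 0.0694), Atp6v0c (0.28 ± 0.09, 0.0777) and Lamp1 (0.24 ± 0.08, 0.0902). Atp6v0c had 595, 687 and 822 CPM in recovery and 452, 544 and 669.5 CPM in controls, and all 7 recovery libraries lay above the control median. The genes that fell in late disease did not pass in recovery, with Smpd1 at -0.12 ± 0.08 (edgeR adjusted p = 0.477) and Laptm5 at -0.02 ± 0.08 (0.945). Recovery and late disease were both compared with the same 14 controls. Without recovery replicate 9, which was the highest recovery library for 17 of 35 genes, 3 genes rose, and the Psap and Man2b1 calls were among those lost. The Man2b1 call also ended without recovery replicate 7, and without late disease replicate 1, 10 genes rose. Over all genes, fits without 1 library called 329 to 750 in this comparison. Against the 3 WT controls of the same diet, Gusb alone of the 35 rose, where 406 of 14192 genes were called in all. The estimates there were 0.82 for Gla, 0.54 for Man2b1, 0.45 for Psap, 0.34 for Naglu and 0.46 for Fuca1. In recovery 11 of 12 neutrophil and 6 of 8 monocyte markers tested rose, as did 2 of 9 border macrophage markers and 0 of 10 microglial markers. Over all genes tested 2.87% rose. Monocyte markers summed to 63.8 to 605 CPM in recovery and 8.78 to 35.8 CPM in controls, and no marker of either list was at 0 in every recovery library. Their part in the recovery values was not tested.

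Recovery compared with late disease had 0 called genes by edgeR, where 0.585% of all genes were called. DESeq2 called 0 of them and 404 of 9037 genes in all, and limma on log2(TPM + 1) called 0 of them and 108 of 13188 in all. At an unadjusted p under 0.05, 3 genes were higher in recovery and 1 lower, where 16.6% of all genes passed. Smpd1 had 109, 132 and 142 CPM in recovery and 80.1, 109 and 123 CPM in late disease, a log2 fold change of 0.26 ± 0.09 (edgeR adjusted p = 0.138). Laptm5 was at 0.25 ± 0.10 (0.178) and Hexa at 0.34 ± 0.16 (0.28). Neu1 was at -0.38 ± 0.17 (0.257), with 71.4, 94.7 and 100.3 CPM in recovery and 82.2, 96.6 and 248 CPM in late disease. Without late disease replicate 6 that Neu1 estimate was -0.09 (edgeR adjusted p = 0.76). The median over the 35 genes was 0.03, against -0.03 over all genes.

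The rNLS8 mice kept on doxycycline were set against WT mice of the same date code, 6 libraries against 3, to see whether these genes differ while the transgene is kept off. The diets also differed, since the 3 WT mice had 6 weeks off doxycycline and 1 week back on. By edgeR 0 of 35 genes were called, 0 had an unadjusted p under 0.05, and DESeq2 and limma called 0. Over all 12958 genes tested here by edgeR, 0.00772% were called and 3.92% had an unadjusted p under 0.05. DESeq2 called 39 of 12905 genes in all, and limma on log2(TPM + 1) called 2 of 11105. The CPM ranges did not overlap for 0 of the 35 genes, against 1.05% of all genes higher and 1.25% lower. The median over the genes was 0.01, and the hydrolase and membrane means were 8.72 ± 0.07 in the rNLS8 libraries and 8.72 ± 0.06 in the WT libraries (SD). Whether the late disease difference depended on sex was tested with an interaction term: 0 of 35 genes were called, the lowest edgeR adjusted p was 0.977, and 4 had an unadjusted p under 0.05, where 0.0% of all genes were called and 4.95% had such a p.

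Atp6v0d2 did not pass the filter on low counts. It had 14.1, 4, 6, 37 and 7 counts in recovery replicates 2, 3, 4, 5 and 8 and 0 in replicates 7 and 9. In late disease it had 6 counts in replicate 2 and 3 counts in replicate 7, in early disease 5 counts in replicate 4, in controls 1 count in replicate 8, and 0 elsewhere. Counts above 3 were thus seen in 5 of 7 recovery libraries and 0 of 14 controls, and also in late disease replicate 2 and early disease replicate 4. When edgeR was run without the filter, recovery against controls gave an adjusted p of 0.000805 and late disease against controls 0.0821. Over all genes that fit called 680 of 25565 in recovery and 1755 of 25565 in late disease. These few counts are at a depth where a fold change has no stable value.

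Other genes of the lysosome were read from lists of 99 further hydrolases, membrane proteins, pump subunits, sorting factors and regulators, 91 of which passed the filter. In late disease 13 of the 91 rose and 5 fell, where 9.01% of all genes tested rose and 6.39% fell. In recovery 5 rose and 1 fell, where 2.87% and 1.1% of all genes did. In early disease 0 were called by edgeR, with 2 higher and 19 lower at an unadjusted p under 0.05, a level that 12.6% of all genes passed. The 5 with the largest changes in late disease included Cd63, a tetraspanin of late endosomes and lysosomes, with 859 ± 526 CPM in late disease and 349.7 ± 113 CPM in controls. On the log2 scale the difference was 1.30 ± 0.21 (edgeR adjusted p = 0.000136). Tpcn2, a cation channel of the lysosomal membrane, was at 1.24 ± 0.19 (3.83e-05), and Tcirg1, the a3 isoform of the V0 subunit that Atp6v0a1 also encodes, was at 0.71 ± 0.14 (0.00105). Galc, which cleaves galactosylceramide of myelin, was at 0.71 ± 0.19 (0.0119) and lost its call without late disease replicate 6, as did the transporter gene Abca2 at 0.66 ± 0.20 (0.026). Those that fell included, named after their values were seen, Pla2g15 (-0.63 ± 0.11), Hyal2 (-0.54 ± 0.17), Slc38a9 (-0.39 ± 0.11) and Vps35 (-0.23 ± 0.07).

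In recovery the 5 largest changes among these genes were Cd63 (1.03 ± 0.21, edgeR adjusted p = 0.00306), Tpcn2 (0.77 ± 0.19, 0.0114), Galns, a sulfatase (0.62 ± 0.13, 0.00434), Gnptab, which helps to tag hydrolases for the lysosome (0.57 ± 0.15, 0.0224), and the carboxypeptidase gene Scpep1 (0.53 ± 0.11, 0.00315). The gene that fell, named after its value was seen, was Vps35 of the retromer, at -0.27 ± 0.07 (0.02). Cd63 was also higher in late than in early disease (1.32 ± 0.26, edgeR adjusted p = 0.0135). Of 11 regulators tested, among them Tfeb, Tfe3, Mitf and Mtor, edgeR called 0 in early disease, late disease or recovery against controls, with 2, 3 and 2 at an unadjusted p under 0.05. With the date code as a term, 0 of the 18 late disease calls among these genes remained, where 4 of 13211 genes were called in all, and Cd63 was at 1.19 and Tpcn2 at 0.89.

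Across libraries the genes differed in how evenly they moved. In recovery the 7 libraries gave a hydrolase and membrane mean of 8.76, 8.87 and 9.06 as lowest, median and highest, and in late disease 8.42, 8.90 and 9.01, against 8.43, 8.71 and 8.81 in controls. The late disease libraries thus spread more widely than those of recovery or the controls, but this rested on replicate 1, at 8.42. The other late disease libraries ran from 8.74 to 9.01. In controls, replicate 11 was the highest library for 14 of 35 genes and replicate 12 the lowest for 13, and both carry date code 1019. In early disease replicate 6 was the lowest for 13 genes and replicate 8 the highest for 10.

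**Figure D5:**
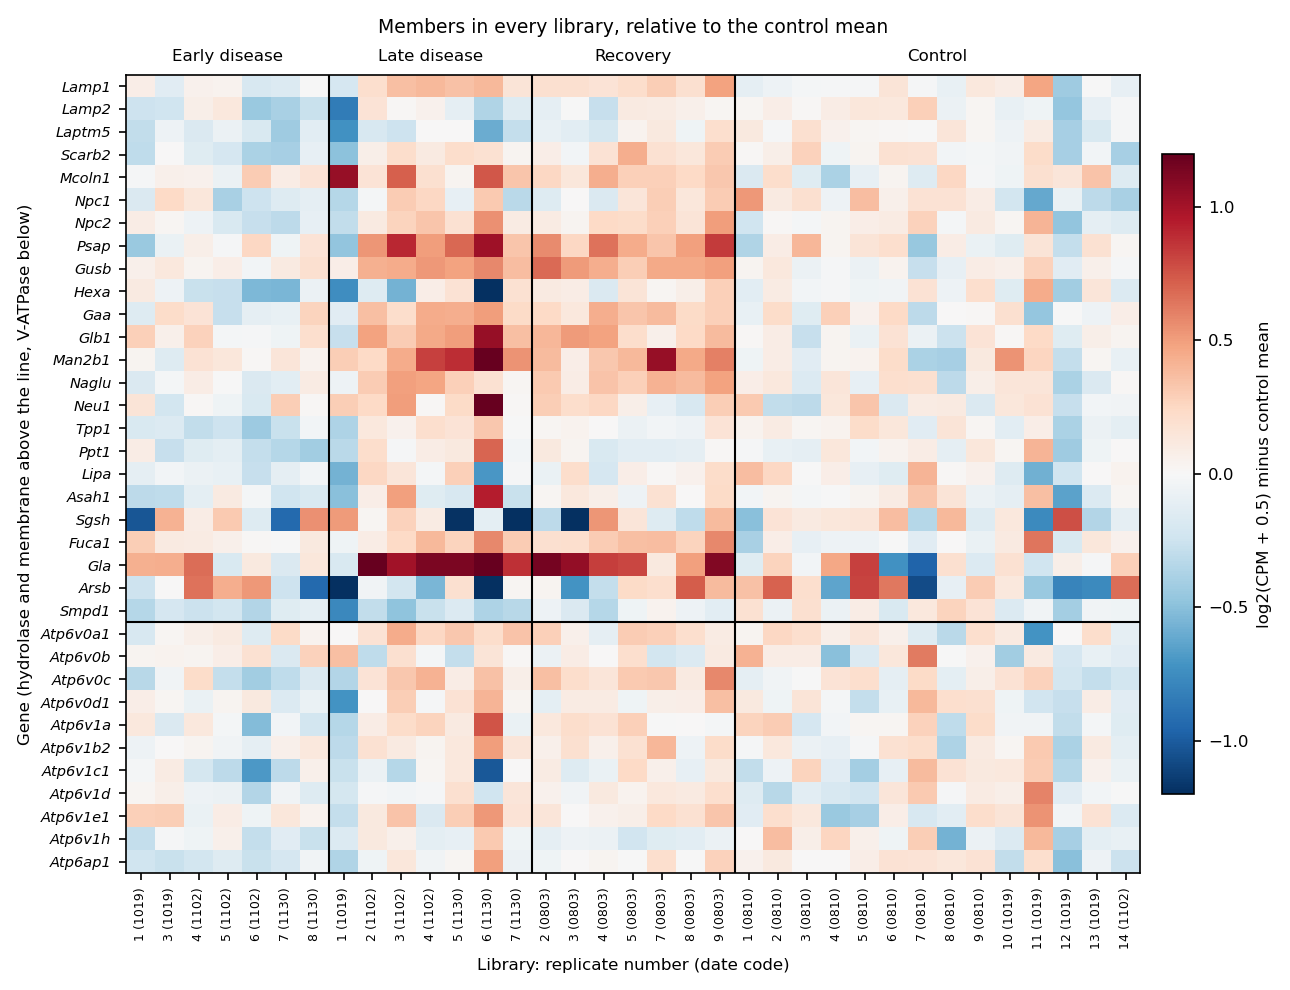
Heat map of log2(CPM + 0.5) minus the control mean for 35 lysosomal genes (rows) in 35 libraries (columns, by group). The colour scale saturates at 1.2 in either direction. Late disease replicate 1 is below the other late disease libraries for 25 of 35 genes, and replicate 6 is the highest for 20.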

How the data were processed

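The authors deposited expected counts and TPM per gene for 35 libraries, made with SMART-Seq Ultra Low and Nextera XT kits per the labels' protocols, and RSEM, DESeq2 and mm10 are named per the submitters' processing notes. No aligner is given in the sources used here. Of the deposited expected counts, 84.67% were whole (within 1e-06). Multi-mapped reads are shared between genes by such counts, and the kit does not mark strand. The TPM of the deposited table do not sum to the full total per library, with 13.9% to 30.8% missing in the 9 controls of date code 0810 and 2.32% to 11.4% in the other libraries, so all TPM of a library move together with that share.

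Expected counts were rounded and tested with edgeR 4.0.16 in R 4.3.3 (TMM, filterByExpr by group, quasi-likelihood F test, group and sex as terms, all 35 libraries; the on-doxycycline comparison used its 9 libraries). CPM are TMM-adjusted, and log2 CPM use a prior count of 2. Totals of 13.9 M to 20.4 M counts set the precision. On simulated counts the edgeR and other fits were tested before use. Alternatives were DESeq2 1.42.0, limma 3.58.1 on log2(TPM + 1) and log2(TPM + 0.1) for genes with at least 1 TPM in 6 libraries, RLE factors, no filter, other controls, date and TPM share terms, and leaving out each library. Figures used matplotlib 3.10.9. Fold changes are the group on top over its reference, and a log2 fold change on the TPM scale understates that of low genes.

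The members and gene lists were chosen with earlier results of these data known. All 36 members are described. Those past the threshold or with the largest change are named with values, and up to 5 of the largest called changes are named among other lysosomal genes; results for some genes of those lists are not reported here. Lists of cell type markers (microglia, border macrophages, monocytes, neutrophils, astrocytes, oligodendrocytes, endothelial cells and neurons) were summed per library: neuron markers reached at most 4.31 CPM, endothelial 53.9 CPM and oligodendrocyte 243 CPM, and the astrocyte sum of 162 to 2729 CPM came almost wholly from Slc1a3. All 154 within-group pairs of libraries differed beyond sampling noise (chi-square per gene of at least 19.6). The sex in the labels and in the deposited design table differed for 2 controls, and the labels were used. Nothing in the labels says that each library is a separate mouse, so p-values measure the spread between libraries. Gene positions are from GENCODE on GRCm38, and promoters from RefSeq on GRCm38.p6.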

Additional observations from a re-analysis of the deposited data

Results flagged for a closer look

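In groups of 7 libraries, 8 of 111 group values had 1 library far from the other 6, at a level that chance alone passes in about 1 in 20 groups. Recovery replicate 9 accounted for 3 of them, all high. Lamp1 was at 2946 CPM in that library against 2369.7 to 2594 CPM in the other 6 recovery libraries, Fuca1 at 298 CPM against 227 to 258 CPM, and Atp6v0d1, a V0 subunit gene, at 113 CPM against 81.1 to 94.2 CPM. Late disease replicate 1 was low for Scarb2, at 237 CPM against 342 to 388 CPM, and for the V-ATPase module mean, at 6.36 against 6.63 to 6.78 log2 CPM. Neu1 stood at 248 CPM in late disease replicate 6, against 82.2 to 115 CPM in the other 6 late disease libraries. In early disease, Lipa, acid lipase, was at 183 CPM in replicate 6 against 205 to 216 CPM, and Fuca1 at 244 CPM in replicate 1 against 199 to 216 CPM.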

How the results depend on the processing

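Replicate numbers did not pair libraries: the median correlation of deviations was -0.000933 over 37 same-numbered pairs, 4 of them over 0.1. With the replicate block edgeR called 2 members in early disease, 12 in late disease and 0 in late against early disease. Over all 13501 genes that fit called 613, 2414 and 29 in these comparisons.

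In early disease limma on log2(TPM + 1) and log2(TPM + 0.1) called 6 and 6 members, all higher. The rNLS8 controls, which share no date code with early disease, gave 3 in place of 0. Among all genes the TPM scales called 1390 and 1354 of 13188 there, and rNLS8 controls gave 735 of 13416. The module differences became 0.18 and 0.18 (hydrolase and membrane) and 0.17 and 0.18 (V-ATPase). Atp6v1b2, at -0.00893, became 0.24 and 0.24 (limma adjusted p = 0.048 each). In late disease both TPM scales called 21, the TPM share covariate 1, the date term 0, shared-date controls 2 and WT controls 8. These fits called 2824 and 2755 of 13188, 252 of 13501, 4 of 13211, 191 of 13544 and 1009 of 13314 genes in all. On the TPM scales the module differences were 0.33 and 0.34 (hydrolase and membrane) and 0.25 and 0.28 (V-ATPase). In recovery DESeq2 called 10, both TPM scales 11, the TPM share covariate 3, rNLS8 controls 3, WT controls 3 and same-diet WT controls 1. Over all genes these recovery fits called 764 of 12950 (DESeq2), 753 and 733 of 13188 (TPM scales) and 253 of 13501 (TPM share). They called 754 of 13416 with rNLS8 controls, 293 of 13314 with WT controls and 406 of 14192 with same-diet WT controls. In late against early disease DESeq2 called 8, and no filter, both TPM scales and the date term 0. The all-gene totals there were 356 of 11642, 51 of 25565, 115 and 80 of 13188, and 30 of 13211. Recovery minus late disease for the V-ATPase became -0.065 and 0.00814. The on-doxycycline rNLS8 minus WT difference became -0.12 and -0.13 (hydrolase and membrane) and -0.15 and -0.15 (V-ATPase). The cause was not tested in any of these.

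Leaving out single libraries gave 8 to 13 calls in late disease, 3 to 10 in recovery, 0 to 10 in late against early disease and 0 elsewhere. Counted over all genes, these fits called 1327 to 2265 in late disease and 329 to 750 in recovery. In late against early disease the total was 16 to 235. Elsewhere it was 0 to 77 (early disease), 6 to 223 (recovery against late disease) and 1 to 6 (on doxycycline). Under these fits hydrolase and membrane differences spanned -0.08 to -0.04 (early disease), 0.11 to 0.21 (late disease) and 0.16 to 0.21 (recovery). The sex interaction was also run with RLE factors and with the sex of the design table, both added after the data were seen, and 0 members were called. At this depth Atp6v0d2 could not be compared.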
